A study of Mus musculus with 10 samples.

Results

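Sox2 and 5 of its relatives, Sox4, Sox11, Sox12, Sox13 and Sox15, were followed through a time course of acute SOX2 depletion. They were chosen by gene symbol from the table of transcribed units (TUs), the stretches that the authors called as transcribed. Of these 6 genes, 5 had a TU of their own, among 16137 TUs with a gene symbol and 40779 TUs in all. Sox15 had none. The assay, TT_chem-seq, labels newly made RNA with the nucleoside 4SU, here at 2 mM for 10 min, and sequences what can then be pulled down. E14 mouse embryonic stem cells of genotype SOX2-FKBP were grown without serum in LIF with a MEK and a GSK3 inhibitor. In every group, controls included, an FKBP degron had been knocked in at the C-terminus of the Sox2 gene, so that dTAG-13 removes the protein. NT cells received DMSO, and the other groups received 500 nM dTAG-13 for 0.5, 1, 2 or 6 h (times below are hours of depletion), with 2 libraries in each of the 5 groups. The labels do not say whether the 2 libraries of a group came from separate cultures, so p-values measure the spread between these libraries, which may be technical. Depletion acts on the protein, so the Sox2 RNA is no check of the labels.

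SOX proteins bind DNA through an HMG box, a domain that recognises a short core sequence and bends the double helix. SOX2, of the B1 group, pairs with the POU factor OCT4 (Pou5f1) at composite sites in pluripotent cells, some of which lie near Sox2 itself and have made Sox2 a textbook case of a gene thought to sustain its own transcription. SOX4, SOX11 and SOX12 form the C group, SOX13 belongs to the D group and SOX15 is the only member of the G group. SOX15 and the B1 factors SOX1 and SOX3 are known to bind similar sites and are often named as possible stand-ins for SOX2. The comparisons below address whether nascent Sox2 changed once its protein was removed, and whether any relative rose.

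Stretches upstream of the genes are shown because the SOX core and the octamer, the POU part of a composite site, are the sequence features through which SOX2 and OCT4 could meet the members. Capitals mark CATTGT or CTTTGT (SOX core) and ATGCAAAT (octamer) on either strand, and all are from RefSeq GRCm38 (mm10), 5′ to 3′, as the 250 bases before the annotated start. Sox2 is the depleted factor's own gene, Sox12 held the only octamer among the members, and Sox4 was the only member with a call at any time.
Sox2, chr3:34649745-34649994, + strand: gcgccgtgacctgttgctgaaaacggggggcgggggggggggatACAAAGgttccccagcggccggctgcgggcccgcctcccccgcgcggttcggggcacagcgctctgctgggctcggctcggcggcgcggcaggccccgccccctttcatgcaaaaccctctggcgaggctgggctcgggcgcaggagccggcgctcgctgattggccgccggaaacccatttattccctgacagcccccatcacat
Sox12, chr2:152398047-152398296, - strand: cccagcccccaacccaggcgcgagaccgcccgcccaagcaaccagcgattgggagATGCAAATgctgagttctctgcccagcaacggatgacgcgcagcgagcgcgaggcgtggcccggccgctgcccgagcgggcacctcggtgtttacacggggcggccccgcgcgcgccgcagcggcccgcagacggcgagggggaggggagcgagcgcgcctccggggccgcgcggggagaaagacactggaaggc
Sox4, chr13:28953700-28953949, - strand: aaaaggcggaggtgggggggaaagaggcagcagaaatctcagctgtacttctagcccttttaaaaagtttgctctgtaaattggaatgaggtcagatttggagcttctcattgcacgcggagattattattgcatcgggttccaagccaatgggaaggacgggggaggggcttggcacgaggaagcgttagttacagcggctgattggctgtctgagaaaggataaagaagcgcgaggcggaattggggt
The Sox2 stretch held 1 match, CTTTGT on the opposite strand, with its leftmost base at position -206 from the start. In Sox12 the octamer ATGCAAAT began at position -195. It lies inside the Sox12 TU, which begins 1139 bases before the annotated start. Neither core nor octamer was found in the 300-base windows (250 before to 50 after the start) of Sox4, Sox11 and Sox13, and that of Sox15 held 1 CTTTGT at position 36 after the start. Over 27025 genes, 28.8% of such windows held either SOX core and 1.75% the octamer, so a single SOX core is common. No match says only that these letters are absent from the window.

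Nascent transcription of Sox2 did not pass the test at any time after SOX2 depletion. In CPM (fragments per 1000000 in the library, after TMM scaling), the TU was at 243 and 282.6 in NT, 248 and 275 at 0.5 h, 229.4 and 254.8 at 1 h, 272.7 and 287.9 at 2 h, and 271.3 and 277.7 at 6 h. The groups overlapped at every time, and the highest of the 10 libraries was 1.25 times the lowest. The log2 fold changes against NT were -0.01, -0.12, 0.09 and 0.06 at 0.5, 1, 2 and 6 h, each with an SE of 0.11 (n = 2 per group, edgeR quasi-likelihood test, Benjamini-Hochberg adjusted p = 0.994, 0.622, 0.657 and 0.736). These values do not show that Sox2 stayed level. The 95% confidence interval ran from -15.5% to 17.1% at 0.5 h, from -21.7% to 8.42% at 1 h, from -9.32% to 25.5% at 2 h and from -11.2% to 22.9% at 6 h. With each library scaled to its total alone, the values at 2 and 6 h changed sign, to -0.02 and -0.03. The joint test of any change over the 4 times gave an adjusted p of 0.622.

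The Sox2 TU is not the same as the Sox2 gene. It spans chr3:34649995-34693958 on the + strand, 44 kb, and starts at the base where the RefSeq transcript starts. Sox2 itself is a gene without introns that fills 5.61% of the unit, and the other 41.5 kb lie past its annotated end. The count is over the whole unit and does not separate fragments of the gene from those past its end. Sox2 also lies in an intron of the noncoding gene Sox2ot on the same strand. Any Sox2ot fragments inside the unit would be counted with it.

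**Figure D1:**
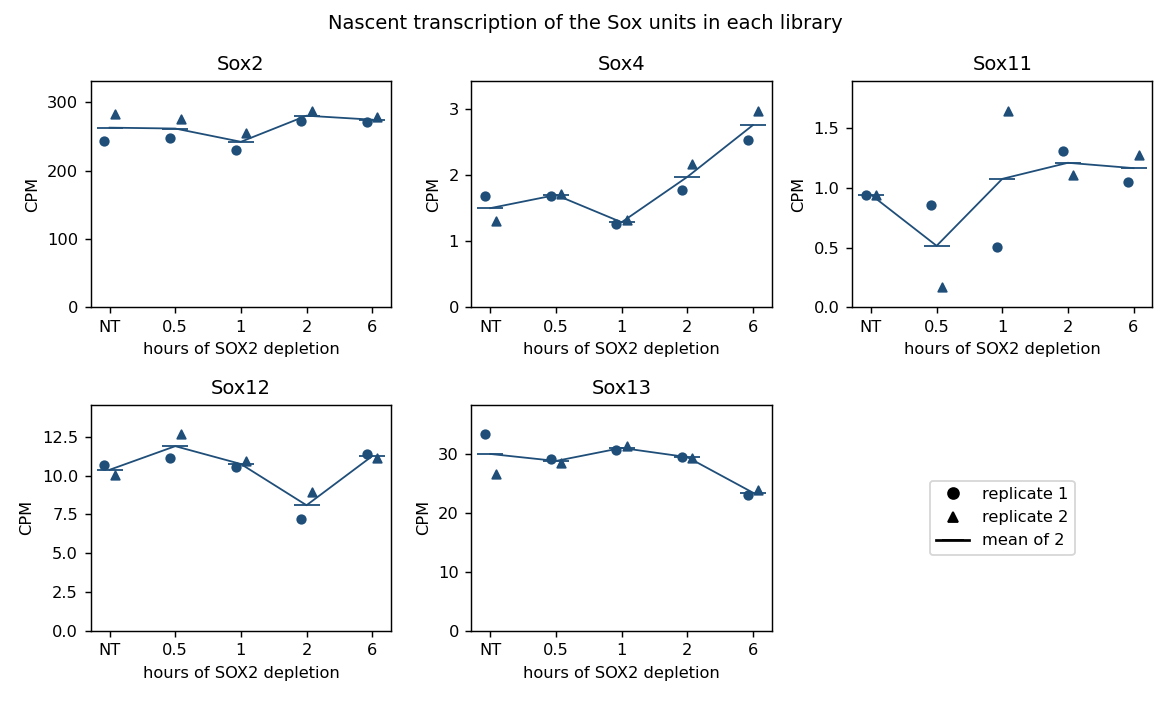
CPM (vertical axis, from 0) of the 5 Sox TUs in NT and after 0.5, 1, 2 and 6 h of SOX2 depletion; circles and triangles are replicates 1 and 2 and dashes joined by a line are their means. Sox2 lies between 229.4 and 287.9 CPM throughout, while both Sox4 libraries at 6 h, at 2.53 and 2.97 CPM, lie above every other library.

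Among the relatives, Sox4 was the only one with a call. SOX4 is a transcriptional activator known from progenitor cells and many tumours. Its TU (chr13:28947343-28953682, - strand, 6.3 kb) was at 1.68 and 1.31 CPM in NT, 1.68 and 1.71 at 0.5 h, 1.25 and 1.31 at 1 h, 1.77 and 2.16 at 2 h, and 2.53 and 2.97 at 6 h. The 6 h libraries lay above all others. At 6 h Sox4 rose by a log2 fold change of 0.88 ± 0.28 (SE, n = 2 per group), which is 83.5% with a 95% interval from 21.6% to 177% (adjusted p = 0.045). The earlier values were 0.17, -0.22 and 0.38, with adjusted p between 0.448 and 0.939. The call at 6 h rests on 36 and 51 fragments against 25 and 18 in NT. DESeq2 gave 0.91 with an adjusted p of 0.178. The call was absent with library totals only (0.785, adjusted p = 0.0906), without the count filter (0.90, adjusted p = 0.0528) and with only the 2 groups compared (0.89, adjusted p = 0.0692), and also when any library other than the 2 at 2 h was left out, with values from 0.73 to 1.09 and adjusted p from 0.042 to 0.229 over the 10 such fits. The joint test over the 4 times did not call it (adjusted p = 0.0764).

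Sox11 and Sox12, the other C-group genes, did not pass the test at any time. SOX11 is best known from developing neurons. Its TU (chr12:27334598-27342675, - strand) held 2 to 29 fragments per library, and its CPM were 0.942 and 0.945 in NT, 0.859 and 0.171 at 0.5 h, 0.502 and 1.65 at 1 h, 1.31 and 1.11 at 2 h, and 1.05 and 1.28 at 6 h. The replicates at 1 h differed from each other by more than any pair of group means did. Its log2 fold changes were -0.61, 0.21, 0.36 and 0.31 with SEs of 0.52 to 0.58 (adjusted p from 0.722 to 0.874), and the 95% interval at 6 h ran from -43.9% to 175%. The 83.5% rise called in Sox4 lies inside that interval. Sox12, a broadly expressed gene whose TU (chr2:152378743-152399185, - strand, 20.4 kb) runs 14.9 kb past the gene, was at 10.7 and 10.0 CPM in NT, 11.1 and 12.7 at 0.5 h, 10.5 and 10.9 at 1 h, 7.23 and 8.94 at 2 h, and 11.4 and 11.1 at 6 h. Both libraries at 2 h were below every other library. The log2 fold change at 2 h was -0.36 ± 0.16 (SE, adjusted p = 0.165), against 0.19, 0.05 and 0.12 at the other times (adjusted p from 0.647 to 0.9). The steps from 1 to 2 h and from 2 to 6 h, -0.41 and 0.48, had unadjusted p of 0.0171 and 0.00721 and adjusted p of 0.667 and 0.216.

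Sox13 ended lowest at 6 h, short of the threshold. SOX13, a D-group factor without a transactivation domain of its own, is known from T-cell lineage choice. Its TU (chr1:133376526-133424430, - strand, 47.9 kb) was at 33.4 and 26.7 CPM in NT, 29.2 and 28.5 at 0.5 h, 30.7 and 31.4 at 1 h, 29.6 and 29.4 at 2 h, and 23.0 and 23.9 at 6 h. The 6 h libraries lay below all others, and the 2 NT libraries stood further apart than those of any other group. The log2 fold change at 6 h was -0.36 ± 0.12 (SE, adjusted p = 0.0594), a change of -21.9% with an interval from -34.7% to -6.56%. With a library left out it ranged from -0.49 to -0.17. It passed without NT replicate 2 (-0.49, adjusted p = 0.0292), with a mean of at least 50 fragments as the filter (-0.41, adjusted p = 0.0186) and with library totals only (-0.45, adjusted p = 0.0257). With a term for the replicate number added to the model (a replicate block), the 6 h value was -0.35 and passed (adjusted p = 0.021). At 0.5, 1 and 2 h the values in the main fit were -0.06, 0.05 and -0.03 (adjusted p from 0.874 to 0.95).

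**Figure D2:**
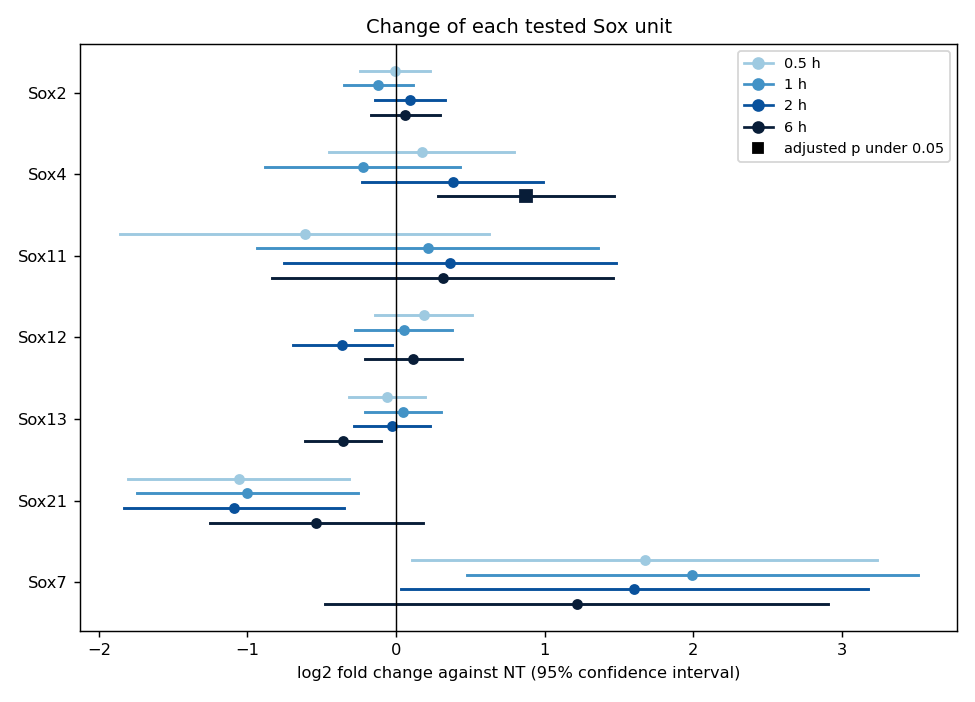
Log2 fold change against NT (horizontal axis) of each tested Sox TU at 0.5, 1, 2 and 6 h, with bars for the 95% confidence interval from edgeR and a square where the adjusted p is under 0.05. The Sox2 points lie within 0.12 of zero, and Sox4 at 6 h, at 0.88, carries the only square.

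Of the 5 tested members, none was called at 0.5, 1 or 2 h by edgeR or DESeq2, where 0, 0 and 1 had an unadjusted p under 0.05. Over all 28459 tested TUs, 1.31%, 5.75% and 9.83% were called at these times. At 6 h, 1 of 5 was called against 15.8% of all TUs, and 2 of 5 had an unadjusted p under 0.05. These counts lie near the background, so neither is a result about the Sox genes. The median log2 fold change of the 5 at 6 h was 0.12, against -0.04 over all TUs. None of 15 differences between successive times passed (smallest adjusted p = 0.216, with 3 unadjusted p under 0.05), where 0.109%, 0.218% and 0.777% of all TUs did from 0.5 to 1, 1 to 2 and 2 to 6 h. None of the 5 passed the joint test of the main fit, which called 12.3% of all TUs. With the replicate block some did, as given under the dependence on processing. As likeness of pattern was to be given only for members called by the joint test of the main fit, none is named.

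Sox15 could not be measured on its own. The RefSeq gene, chr11:69655037-69656727 on the + strand, lies wholly inside the 87 kb TU on that strand named for its neighbour Fxr2, where it makes up 1.94% of the length. That TU was at 159 and 158 CPM in NT and 149 and 164 at 6 h, with all 10 libraries between 148.6 and 164 CPM. It carries no information on the smaller gene. The Mpdu1 TU covers the same bases on the other strand and was counted apart, because the authors split alignments by strand.

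Per kilobase of TU, the Sox genes in NT covered a wide range of nascent transcription. Sox2 was at 5.98 ± 0.64 CPM per kb (SD, n = 2), above 95.9% of the tested TUs with a gene symbol. Sox13 followed at 0.627 ± 0.0991, Sox12 at 0.507 ± 0.0233, Sox4 at 0.236 ± 0.0418 and Sox11 at 0.117 ± 0.0002 CPM per kb. Sox2 was thus 9.54 times the next Sox TU, a gap far beyond the spread. Sox13 and Sox12 differed by about the SD of Sox13, and their order turned at 6 h, where Sox13 was at 0.481 and 0.498 and Sox12 at 0.557 and 0.544 CPM per kb. Sox4 remained far below Sox2 at 6 h, at 0.434 CPM per kb. These are levels over whole TUs, which for Sox2 and Sox12 reach far beyond the gene.

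The wider family held no second call in the main fit. Of 20 Sox genes, 9 had a TU and 7 passed the count filter of more than 10 fragments in at least 2 libraries, of which Sox4 alone was called. Sox21, a B2-group gene whose product is known to repress targets that SOX2 activates, was at 1.68 and 2.76 CPM in NT, 0.976 and 1.20 at 0.5 h, 0.878 and 1.31 at 1 h, 0.91 and 1.17 at 2 h, and 1.33 and 1.69 at 6 h. Both libraries were below both of NT at 0.5, 1 and 2 h and overlapped at 6 h. Its log2 fold changes, -1.06, -1.0, -1.09 and -0.54 (SEs of 0.34 to 0.35), had adjusted p of 0.211, 0.125, 0.0607 and 0.3, and 2 h passed without NT replicate 1 (-1.41, adjusted p = 0.0374). With the replicate block Sox21 passed at 1 and 2 h (-1.01 and -1.08, adjusted p = 0.0283 and 0.0124). Sox7, an endothelial and endoderm F-group gene, held 5 and 0 fragments in NT and 6 to 13 in each treated library, and passed the filter only through 4 treated libraries. All 8 treated libraries were above both of NT in CPM. Its log2 fold changes were 1.67, 1.99, 1.6 and 1.22 with SEs of 0.71 to 0.79, and it was not called (adjusted p from 0.134 to 0.462, unadjusted 0.0378, 0.0134, 0.0461 and 0.146). Since the groups where it was high carried it over the filter, these values are no support for a rise.

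Sox3, the closest relative of Sox2 with a TU, was too weakly transcribed for the test. It held 1 and 0 fragments in NT, 2 and 3 at 0.5 h, 1 and 2 at 1 h, 2 and 2 at 2 h, and 7 and 9 at 6 h, so that both 6 h libraries exceeded all others. Scaled by library size, 16 fragments at 6 h against 1 in NT gave a ratio of 14.6 with an exact 95% interval from 2.27 to 611, which covers counting error only. Without the count filter, edgeR gave a log2 fold change of 3.63 with an adjusted p of 0.0195, where 11.1% of all TUs were called. At 0.508 CPM on average at 6 h, Sox3 was at 0.284 CPM per kb, still far below Sox2. The endoderm gene Sox17 was also under the filter, with 3 to 14 fragments per library. The other 11 family genes, Sox1 among them, had no TU.

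Around Sox2, a long antisense TU was the only neighbour called. Within 100 kb of the Sox2 unit there were 8 antisense and extragenic TUs, of which 6 passed the filter, and 3 other gene TUs. The antisense TU spans chr3:34636376-34672131 on the - strand, 35.8 kb. It starts 22.1 kb inside the Sox2 unit, runs back across the Sox2 start and covers the whole TU named for Sox2ot. Sox2ot is the noncoding gene in whose intron Sox2 lies in the mouse genome. Its 5′ end is shown because it is the start of the only TU near Sox2 that passed the test, with 250 bases before and 50 after the first base and the same motifs in capitals.
Sox2 antisense TU, chr3:34672082-34672381, - strand: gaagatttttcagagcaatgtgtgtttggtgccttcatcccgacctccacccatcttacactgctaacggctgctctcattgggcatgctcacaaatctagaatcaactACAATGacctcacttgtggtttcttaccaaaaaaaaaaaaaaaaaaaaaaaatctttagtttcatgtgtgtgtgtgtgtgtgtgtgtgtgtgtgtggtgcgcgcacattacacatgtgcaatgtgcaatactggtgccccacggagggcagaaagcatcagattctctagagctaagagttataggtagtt
It held 1 SOX core, CATTGT on the opposite strand, with its leftmost base at position -141 from the first base. Of 13462 tested antisense and extragenic TUs, 29.7% had either core in such a window.

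This antisense TU was at 22.4 and 29.9 CPM in NT, 21.2 and 22.3 at 0.5 h, 16.2 and 16.6 at 1 h, 18.9 and 21.4 at 2 h, and 20.5 and 22.1 at 6 h. All 8 treated libraries lay below both NT libraries, and those at 1 h were the lowest. At 1 h it fell by 0.67 on the log2 scale, with an SE of 0.14 (n = 2 per group, adjusted p = 0.01), where 4.23% of the tested antisense and extragenic TUs were called. At 0.5, 2 and 6 h the values were -0.27, -0.38 and -0.30 (adjusted p = 0.605, 0.106 and 0.17). The joint test called it at an adjusted p of 0.046, as it did 9.03% of such TUs. The ratio of its fragments to the Sox2 fragments of the same library, which are counted apart, does not depend on the scaling of libraries. This ratio was 9.22% and 10.6% in NT, 8.54% and 8.12% at 0.5 h, 7.08% and 6.53% at 1 h, 6.93% and 7.43% at 2 h, and 7.56% and 7.95% at 6 h. Every treated library was again below both NT libraries. The call at 1 h was absent without NT replicate 2 (-0.43, adjusted p = 0.178), without 1 h replicate 1 (-0.65, adjusted p = 0.102) and without 1 h replicate 2 (-0.69, adjusted p = 0.0817). Without NT replicate 1 the TU passed also at 2 h (-0.57, adjusted p = 0.0256) and at 6 h (-0.47, adjusted p = 0.0381).

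**Figure D3:**
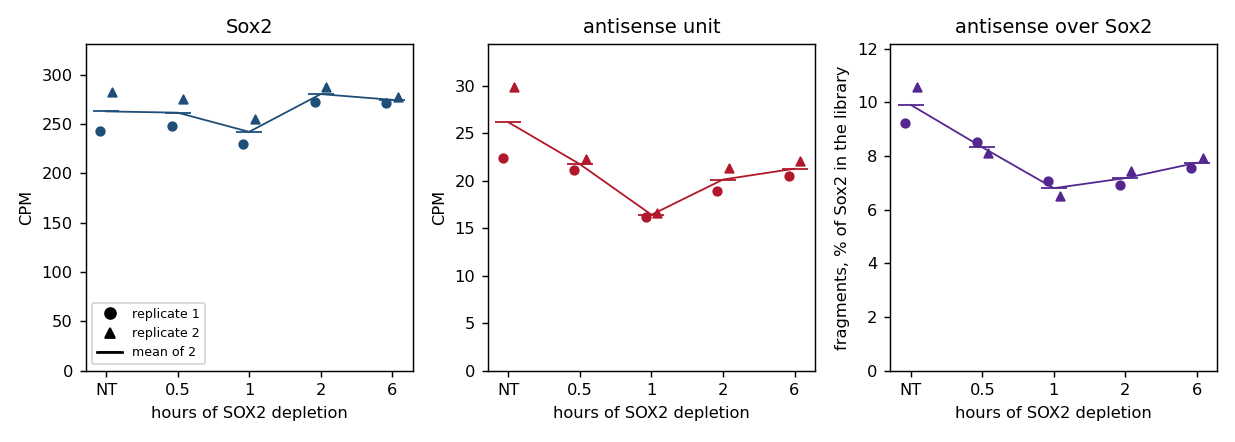
From left to right, CPM of the Sox2 TU, CPM of the antisense TU over it, and the antisense fragments as a percentage of the Sox2 fragments in the same library, in NT and after 0.5, 1, 2 and 6 h of SOX2 depletion; circles and triangles are replicates 1 and 2 and dashes their means. The ratio of antisense to Sox2 fragments is 9.22% and 10.6% in NT and between 6.53% and 8.54% in the 8 treated libraries.

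The other TUs near Sox2 had no call. The antisense TU at the downstream end of the Sox2 unit (chr3:34688847-34701274, - strand) averaged 3.16 CPM in NT and 2.74 at 6 h. Of the extragenic TUs, that on the + strand at chr3:34698523-34706263 averaged 0.767 CPM in NT and 0.689 at 6 h, and that on the - strand at chr3:34742668-34747734 averaged 1.16 and 1.03. The antisense TU at chr3:34750915-34772315 on the - strand averaged 5.33 CPM in NT and 5.15 at 6 h. A + strand extragenic TU 41.2 kb past the Sox2 unit (chr3:34735126-34749009) was at 0.74 and 0.799 CPM in NT, 1.17 and 0.941 at 0.5 h, 1.25 and 1.94 at 1 h, 1.62 and 1.75 at 2 h, and 1.05 and 1.4 at 6 h. All its treated libraries were above both NT libraries, with adjusted p of 0.8, 0.122, 0.0618 and 0.249, so it did not pass. The antisense TUs at chr3:34633225-34634698 on the - strand and chr3:34709602-34711252 on the + strand held at most 6 fragments and were not tested. Among the gene TUs, Sox2ot averaged 2.15 CPM in NT and 1.53 at 6 h, Gm3143 1.80 and 1.47, and Gm38509 11.7 and 10.45. The Sox2ot TU ends 12 bases before the Sox2 unit begins on the same strand, so the border between them was set where the units were called. The smallest adjusted p among these genes was 0.393.

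**Figure D4:**
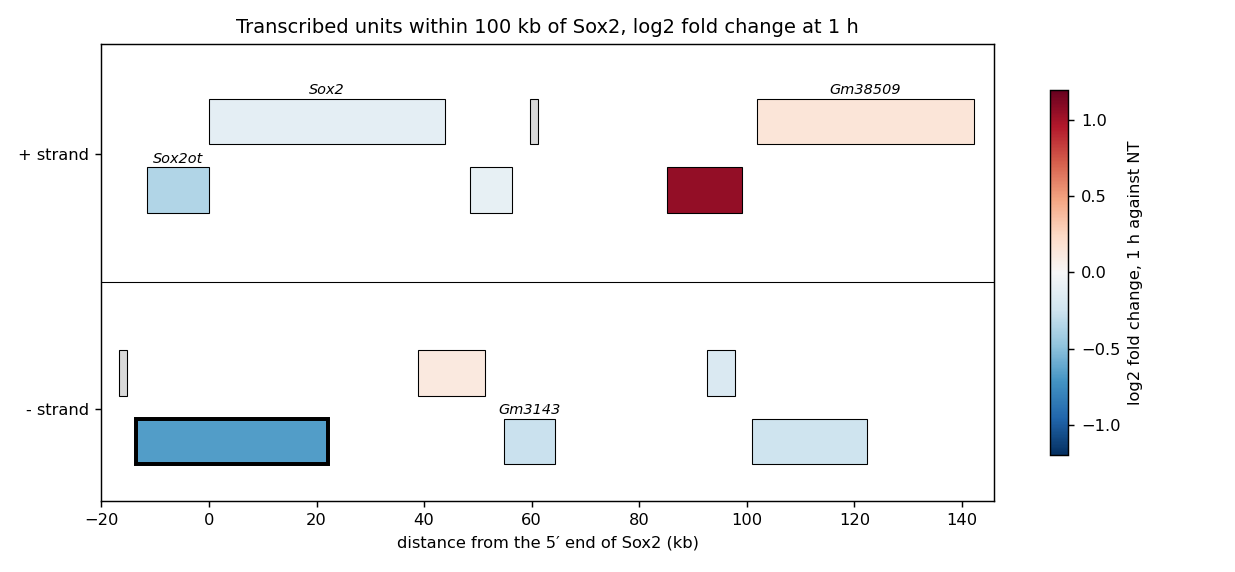
TUs within 100 kb of the Sox2 unit on each strand, drawn to scale against the distance in kb from the 5′ end of Sox2, with colour for the log2 fold change at 1 h against NT, grey for TUs under the count filter and a heavy outline for an adjusted p under 0.05; offsets within a strand only separate neighbours. Only the antisense TU across the Sox2 start, at -0.67, carries a heavy outline.

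Beside Sox13, 2 TUs around the neighbouring gene Kiss1, an extragenic and an antisense one, were called lower, while Sox13 itself was not called. Of 8 antisense and extragenic TUs within 100 kb of Sox13, 4 were tested, and 1, 2, 2 and 2 of them were called lower at 0.5, 1, 2 and 6 h, none higher. At these times 0.758%, 3.65%, 5.82% and 10.8% of all tested antisense and extragenic TUs were called lower. An extragenic TU at chr1:133338921-133342615 on the + strand, 33.9 kb past the 3′ end of Sox13, was at 2.15 and 4.72 CPM in NT, 0.703 and 0.941 at 0.5 h, 1.00 and 1.02 at 1 h, 0.91 and 0.877 at 2 h, and 0.492 and 0.524 at 6 h. All 8 treated libraries were below both NT libraries. Its log2 fold changes were -2.11, -1.74, -1.93 and -2.73 with SEs of 0.37 to 0.42 (adjusted p = 0.0115, 0.00966, 0.00337 and 0.000416). Without NT replicate 2 they were -1.44, -1.06 and -1.26 at 0.5, 1 and 2 h and no longer passed (adjusted p = 0.183, 0.18 and 0.0746), while 6 h did in each of the 10 fits with a library left out. Its 0.5 h call was absent also without either library of that time (-1.85 and -2.26, adjusted p = 0.169 and 0.0506), and that at 1 h likewise (-1.73 and -1.76, adjusted p = 0.0881 and 0.0867).

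A TU antisense to Kiss1 (chr1:133312688-133333363, - strand, 20.7 kb) was at 5.18 and 6.32 CPM in NT, 2.11 and 2.99 at 0.5 h, 1.25 and 1.77 at 1 h, 0.809 and 1.81 at 2 h, and 1.19 and 1.69 at 6 h. Here too every treated library was below both NT libraries. Its changes by -1.92, -2.15 and -1.97 on the log2 scale at 1, 2 and 6 h (SE 0.33 each, adjusted p = 0.00223, 0.000617 and 0.000883) passed in each fit with a library left out, and -1.22 at 0.5 h did not pass (adjusted p = 0.0709). Without either library of 2 h, the value at 0.5 h was the same to 2 decimals and passed (adjusted p = 0.0269 and 0.0284), and it passed with only the 2 groups compared (-1.20, adjusted p = 0.0285). Neither this TU nor the extragenic one had a SOX core or octamer in the 300 bases around its 5′ end. Kiss1, which encodes kisspeptin, the neuropeptide that drives gonadotropin release, was at 0.942 and 1.53 CPM in NT, 0.351 and 1.03 at 0.5 h, 0.376 and 0.0569 at 1 h, 0.354 and 0.409 at 2 h, and 0.281 and 0.291 at 6 h. It was called at 1 h (-2.51 ± 0.66, SE, adjusted p = 0.0359) and at 6 h (-2.07 ± 0.63, SE, adjusted p = 0.0375), on 14 and 21 fragments in NT and 1 to 6 at those times. It passed the filter only through both NT libraries, where it was high, and 1 library at 0.5 h, so its calls are values and no support for a fall. Leaving out NT replicate 1 (-2.80), NT replicate 2 (-2.11), 1 h replicate 2 (-1.69) or either library of 6 h (-2.49 and -2.51) ended its 1 h call. The 6 h call ended with DESeq2 (-2.07, adjusted p = 0.108), without NT replicate 2 (-1.67) and without either library of 6 h (-2.04 and -2.10). With only the 2 groups compared Kiss1 passed at 2 h too (-1.67, adjusted p = 0.0369). Kiss1 was 1 of 13 tested gene TUs within 100 kb of the members, 1 of which was called at 1 h and 1 at 6 h, against the 5.75% and 15.8% of all TUs. Etnk2, an ethanolamine kinase gene whose TU (chr1:133363796-133384058, + strand) overlaps the end of the Sox13 unit, passed the joint test alone (adjusted p = 0.0391). It was at 2.83 and 3.05 CPM in NT, 4.29 and 2.99 at 0.5 h, 3.45 and 3.08 at 1 h, 1.87 and 1.87 at 2 h, and 2.25 and 1.57 at 6 h. Both of its libraries at 2 and at 6 h were below both NT libraries.

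**Figure D5:**
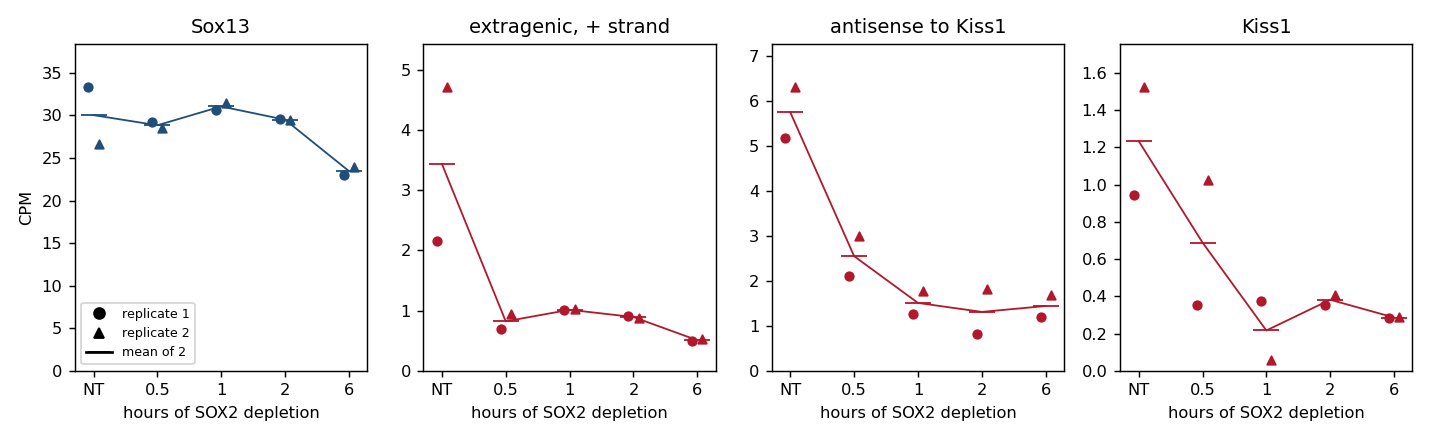
CPM of Sox13 and of 3 neighbouring TUs, the + strand extragenic TU, the TU antisense to Kiss1, and Kiss1, in NT and after 0.5, 1, 2 and 6 h of SOX2 depletion; circles and triangles are replicates 1 and 2 and dashes their means. The extragenic and antisense TUs are below both NT libraries in all 8 treated libraries, while Sox13 stays between 23.0 and 33.4 CPM.

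Around the other members no call was made. Within 100 kb of Sox12, 2 of 6 antisense and extragenic TUs and 7 of 7 gene TUs were tested. The antisense TU across the Sox12 start (chr2:152396582-152407301, + strand) had an adjusted p of 0.153 at 2 h and 0.142 at 6 h. Near Sox4, 1 of 2 antisense and extragenic TUs and 1 of 3 gene TUs passed the filter, and the divergent TU 0.4 kb upstream of Sox4 held 1 to 8 fragments per library and was not tested. Sox11 had no other TU within 100 kb. Over all members, 13 of 24 antisense and extragenic TUs were tested and 1, 3, 2 and 2 were called at 0.5, 1, 2 and 6 h, against 0.943%, 4.23%, 7.17% and 13.2% of all such TUs. All these calls were toward lower counts and lay beside Sox2 or Sox13.

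Of 14 genes that SOX2 and OCT4 are known to act on, 13 were called lower at 6 h, while Sox2 was not called at any time. The list, chosen with results of these data known and so no independent evidence, was tested in full, and 3, 6, 10 and 13 were called lower at 0.5, 1, 2 and 6 h, none higher, where 0.787%, 3.61%, 5.57% and 9.2% of all TUs were. Their median log2 fold change was -0.27, -0.29, -0.46 and -0.77 at these times, against medians of -0.02 to -0.04 over all TUs. At 6 h Klf2, a naive pluripotency factor, fell by 3.58 on the log2 scale (SE 0.14, adjusted p = 1.27e-09). Lefty1, an inhibitor of Nodal signalling, fell by 3.92 (SE 0.43, adjusted p = 1.78e-05), Spp1, which encodes osteopontin, by 1.74 (SE 0.11, adjusted p = 8.77e-08) and Fgf4, a growth factor whose enhancer is the classical SOX2-OCT4 site, by 1.42 (SE 0.13, adjusted p = 4.76e-06). Zfp42 was the gene without a call at 6 h, at -0.11 (adjusted p = 0.554).

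Among the POU factors, the partners of SOX proteins on DNA, 9 of 15 genes were tested and 2 rose and 1 fell at 6 h, when 6.61% of all TUs rose and 9.2% fell. Pou5f1, which encodes OCT4, averaged 159 CPM in NT and 103 at 6 h, a fall of 0.62 on the log2 scale (SE 0.11, adjusted p = 0.00103). Pou3f1, a neural and late epiblast factor, rose from a mean of 0.283 to 2.65 CPM (log2 fold change 3.22 ± 0.42, SE, adjusted p = 9.62e-05). It held 3 and 5 fragments in NT and passed the filter only through its 4 libraries at 2 and 6 h, the groups where it was high, so its place in the count of rises is no support for one. Pou2f3, known from tuft cells and skin, rose from 127 to 235 CPM (0.89 ± 0.11, SE, adjusted p = 4.86e-05) and was called already at 1 h (0.75, adjusted p = 0.000543). Of 8 tested HMG-box factors outside the Sox family, 3 rose and 1 fell at 6 h, against the same shares of all TUs. Bbx rose by 0.88, Hbp1, a repressor of Wnt targets and the cell cycle, by 0.50 and Tcf7l2, a Wnt effector, by 0.47 (SEs of 0.11 to 0.12, adjusted p = 0.000145, 0.00532 and 0.00909), and Tcf7l1, the repressor that restrains naive pluripotency genes, fell by 0.58 (SE 0.12, adjusted p = 0.00543). Without 6 h replicate 2, Hbp1 (0.47, adjusted p = 0.0516) and Tcf7l2 (0.35, adjusted p = 0.126) no longer passed, nor did Tcf7l2 without NT replicate 2 (0.45, adjusted p = 0.0769). Tcf7l1 lost its call without NT replicate 2 (-0.54, adjusted p = 0.0567) or 6 h replicate 1 (-0.53, adjusted p = 0.0548). The medians at 6 h were 0.09 for the POU list and 0.12 for the HMG-box list, near that over all TUs, -0.04.

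The libraries held 11131490 to 25854106 fragments in TUs. All 9 naive embryonic stem cell markers were tested, and their summed level was 4184 and 4602 CPM in NT and 3484 and 3718 CPM at 6 h, with 6 of 9 called lower at 6 h, as were 9.2% of all TUs. Summed levels of the other marker lists were at most 51.0 CPM. The highest of these was trophoblast, led by Tfap2c, at 51.0 and 48.4 CPM in NT and 28.1 and 24.0 CPM at 6 h, when 2 of its 3 tested genes were called lower, Krt8 (-1.996) and Tfap2c (-0.83). The neural list was at 25.6 and 28.0 CPM in NT and 19.7 and 21.5 CPM at 6 h, with Nes called lower at 1, 2 and 6 h (-0.68, -0.87 and -0.97) and Pax6 at no time. The fibroblast list was at 19.1 and 12.9 CPM in NT and 10.8 and 11.4 CPM at 6 h, with Vim called lower at 2 and 6 h (-0.95 and -0.63) and Col1a1 at no time. Primitive endoderm, at 4.91 and 4.29 CPM in NT, was at 7.02 and 7.63 CPM at 6 h, where Sox4 had its call. None of its 4 tested genes was called at 6 h, with values of 0.85 for Gata6, 0.88 for Pdgfra, 1.22 for Sox7 (which passed the filter only through treated libraries) and -0.28 for Gata4, and Gata6 was called at 2 h (1.14, adjusted p = 0.0295). The primed epiblast markers, at 8.68 and 9.59 CPM in NT and 6.81 and 7.22 CPM at 6 h, rested on 2 of 4 genes. Of these Pou3f1 was called higher at 2 and 6 h (1.85 and 3.22), and Otx2 lower at all 4 times (-0.94, -1.07, -1.15 and -1.02). Pou3f1 passed the filter only through its libraries at 2 and 6 h, so its calls are no support for a rise. The mesoderm list held 4 symbols, with T and Tbxt standing for the same gene. Of these Eomes, a regulator of mesoderm and endoderm formation, alone had a TU. Eomes was at 2.15 and 2.69 CPM in NT, 6.87 and 7.01 at 0.5 h, 7.53 and 7.52 at 1 h, 7.63 and 9.18 at 2 h, and 3.16 and 3.49 at 6 h. It was called higher at 0.5, 1 and 2 h (log2 fold changes of 1.52, 1.64 and 1.79, adjusted p = 0.00145, 0.000182 and 3.98e-05) and not at 6 h (0.465, adjusted p = 0.177). Their part in the result for Sox4 was not tested. In bulk libraries a change in the share of cells that transcribe a gene and a change within each cell cannot be told apart.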

How the data were processed

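TT_chem-seq was carried out on SOX2-FKBP cells in 5 groups of 2 libraries. The deposited values are raw counts of fragments per TU, one column per library. According to the study's methods, the authors used BWA 0.7.17-r1188, which does not splice reads, against mm10, SAMtools 1.10 for a filter on mapping quality and Picard 2.12.0 for duplicates, and separated the strands. They called TUs on pooled data with a hidden Markov model, refined their borders to single bases and then tied them to RefSeq genes, so that a TU can run beyond its gene.

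The members and all gene lists were chosen with earlier results of these data known. TUs were kept where 2 or more libraries held over 10 fragments (28459 of 40779). A model with 1 coefficient for each group and TMM factors was fitted to all 10 libraries in edgeR 4.0.16 (R 4.3.3), and quasi-likelihood F-tests were made against NT, between successive times and jointly. P-values were adjusted by Benjamini-Hochberg over all tested TUs and called under 0.05. The fit shared a common biological coefficient of variation of 10%, and TUs under the filter held 0.316% of fragments. The script was tested on simulated data. Levels are CPM on TMM-scaled library sizes, and CPM per kb divides by TU length. The named TUs were the members, all antisense and extragenic TUs within 100 kb of Sox2, called TUs within 100 kb of other members (at most 5 antisense or extragenic and 3 gene TUs per member), each tested Sox gene, and at most 4 genes per other list and direction called at 1 or 6 h. Sox3, Sox17, Zfp42, Fxr2, Mpdu1, Etnk2, Gata4, Gata6, Pdgfra, Pax6, Col1a1, Sox2ot, Gm3143, Gm38509 and the TUs without a call at the starts of Sox4 and Sox12 were named after their values were seen. Starts of annotated transcripts in the table lay 1 below the RefSeq GRCm38 start for 7265 of 14891 matched symbols and were equal for 185, while 7206 ends were equal, so starts were read as counted from 0 and are printed counted from 1. All 658 promoter windows compared with the genome were identical. SOX and octamer letters were counted on both strands.

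Alternatives were DESeq2 1.42.0, RLE factors, library totals only, a mean of at least 50 fragments or no minimum as the filter, only the 2 groups compared, a replicate block, a 50 kb window, and leaving out each library in turn. Counting intervals cover counting error only, and depth ranged from 11131490 to 25854106 fragments per library.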

Additional observations from a re-analysis of the deposited data

How the results depend on the processing

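Over 51 fold changes of single TUs and up to 17 alternative settings, 770 of 838 values kept their direction and side of the threshold, 36 lost a call, 16 gained one and 16 reversed. The reversed values all belonged to uncalled changes of members. With only the 2 groups compared Sox2 at 0.5 h was 0.0059. With library totals only, which moved the median of all TUs to -0.06, -0.13, -0.16 and -0.13 at 0.5, 1, 2 and 6 h, Sox2 was -0.020 at 2 h and -0.029 at 6 h, Sox12 at 1 h -0.037 and Sox13 at 1 h -0.039. At 2 h Sox13 was 0.0036 with DESeq2 or RLE factors. With a library left out, Sox2 ranged from -0.11 to 0.11 at 0.5 h, -0.21 to 0.015 at 1 h, -0.013 to 0.21 at 2 h and -0.025 to 0.20 at 6 h, Sox11 at 1 h from -0.90 to 0.80, and Sox13 from -0.20 to 0.12, -0.084 to 0.24 and -0.18 to 0.14 at 0.5, 1 and 2 h. The cause was not tested.

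Members called at 6 h (1) were 0 with DESeq2, no count filter or only the 2 groups compared, and 0 to 1 with a library left out. With library totals only, a mean of at least 50 fragments (which Sox4 did not reach) or without NT replicate 2 the single call was Sox13, not Sox4. Genes of the whole Sox family called at any time (1) were 0 with DESeq2 or only the 2 groups compared, and 0 to 2 with a library left out. Without the count filter the single family call was Sox3 (3.63), not Sox4. Of the neighbours, calls at 0.5 h (1) were 0 with a mean of at least 50 fragments and 2 with only the 2 groups compared, and 0 to 2 with a library left out. At 1 h (3) they were 1 with that mean and 1 to 3 with a library left out, at 2 h (2) they were 0 and 1 to 3, and at 6 h (2) they were 0 with that mean, since both called TUs beside Sox13 fell under it. Calls within 50 kb were as many as within 100 kb at each time.

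The main model took no account of the replicate numbers. Deviations of same-numbered libraries correlated between groups at 0.0544 to 0.663, in 8 of 10 pairs of groups above 0.1. Same-numbered libraries were thus alike in part, and the calls made with a replicate block are given here. With the replicate block, members called at 6 h were 2, by the joint test 2 (0 without it), genes of the whole Sox family 3, and neighbours 2 at 0.5 h and 4 at 2 h. Of the 51 fold changes, those that gained a call with it were Sox13 at 6 h (-0.35, adjusted p = 0.021), Sox21 at 1 and 2 h (-1.01 and -1.08, adjusted p = 0.0283 and 0.0124), the antisense TU across the Sox2 start at 2 h (-0.37, adjusted p = 0.0237), the TU antisense to Kiss1 at 0.5 h (-1.18, adjusted p = 0.00242) and Kiss1 at 2 h (-1.66, adjusted p = 0.0328). The other neighbour it called at 2 h was the + strand extragenic TU 41.2 kb past the Sox2 unit (1.12, adjusted p = 0.0269). Over all TUs it called 1120, 3188, 5446 and 7430 at the 4 times.

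Over all TUs, 150 rose and 224 fell at 0.5 h, 611 and 1026 at 1 h, 1213 and 1585 at 2 h, and 1880 and 2618 at 6 h. DESeq2 gave 200 and 191, 696 and 690, 1336 and 1056, and 1653 and 1719, and library totals only 126 and 236, 462 and 1233, 835 and 2066, and 1456 and 3106. With only the groups compared, 1751 rose and 1264 fell at 1 h. With a library left out, calls ran from 84 to 506, 654 to 2051, 1183 to 3719 and 1990 to 5314, lowest without NT replicate 2 at 0.5, 2 and 6 h and without 1 h replicate 1 at 1 h.

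Depth limits Sox3, Sox4, Sox7, Sox11, Sox17, Sox21 and Kiss1, which held at most 51 fragments in any library, and 11 of 24 antisense and extragenic neighbours were under the filter. Borders of TUs limit what Sox2 and Sox15 can show.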
